A study of Solanum lycopersicum with 8 samples.

Results

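Of 29345 tomato genes listed, 67 differed between A2AS and wild type (WT) anthers in opposite directions in control and heated plants. The labels give A2AS as a name only. In published work it is a line with antisense suppression of HsfA2, a heat stress transcription factor. A gene was included when its log2 ratio of (A2AS + 1) to (WT + 1) was at least 1 in size in control and in heated anthers, with opposite signs, and its mean level was at least 10 CPM (reads per 1000000 of the library) in each pair. Of these genes, 38 were higher in A2AS than in WT in control anthers and lower in A2AS in heated anthers, and they are called the control-high genes below. The other 29, called the control-low genes, were lower in A2AS in control anthers and higher in A2AS in heated anthers. Both names refer to the level in A2AS relative to WT in control anthers. The minimum was met by 8859 genes, of which the 67 are 0.756%, while 20 genes (0.226%) differed at least 2-fold with the same sign in both pairs. The members were chosen by their levels in the 4 anther libraries, so every anther difference given here is a description of the choice and carries no test.

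Anthers hold the developing pollen and the tapetum, the cell layer that feeds it and then degenerates. Transcripts of these tissues appear and disappear in a fixed sequence as pollen matures, so a gene's level in whole anthers depends on the stages collected as well as on the plant's state. HsfA2 belongs to a family of transcription factors that bind heat stress elements, and it accumulates during heat and recovery, when it sustains the expression of small heat shock proteins and other chaperones.

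The assay, massive analysis of cDNA ends (MACE), counts 3′ ends of polyadenylated RNA, 1 read per transcript, so levels need no term for gene length. The groups were A2AS and WT plants of cv Moneymaker aged 8 weeks, each without stress (control) or after heat, with young leaves and anthers taken from each. Heat lasted 1 h at 39 °C and was followed by 1.5 h of recovery at 24 °C, and the labels do not describe the handling of the control plants. The labels give neither the promoter and number of lines behind A2AS nor the number of plants in a library. They say that anthers of several developmental stages were collected, without the share of each stage in any library. Each of the 8 groups had 1 library, so no difference within a pair has a replicate check. The anther libraries held 12411606 to 14764187 reads and the leaf libraries 6243965 to 13857252. Intervals in brackets are 95% exact (Clopper-Pearson) intervals and cover counting error only. Fewer cells of a type and less RNA per cell cannot be told apart in whole anthers.

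The targeted gene went with the A2AS label in leaf and against it in heated anthers. HsfA2 (Solyc08g062960 in published tomato nomenclature) was at 1.08 CPM in the control anther library labelled A2AS and 1.93 CPM in WT control anthers, 1.78-fold lower with a counting interval (0.909 to 3.59) that includes 1. After heat it was at 39.3 CPM in the anther library labelled A2AS and 22.3 CPM in WT anthers, a 1.76-fold (1.53 to 2.03) higher level in the library with the suppression label. In leaf it was 4.59-fold (3.07 to 7.06) lower in A2AS without stress, at 2.25 CPM against 10.3 CPM in WT. It was also 7.98-fold (4.90 to 13.9) lower after heat, at 2.72 CPM in A2AS and 21.7 CPM in WT. Every direction below that uses the heated anther library labelled A2AS carries this limit. Strand use was not given, so sense and antisense reads at HsfA2 cannot be told apart in any library. The 4 chaperone genes used as a check of the treatment (3 small heat shock proteins and HSP101, likewise named from the nomenclature) summed in anthers to 4196 CPM in the heated library labelled A2AS, 4375 CPM in heated WT, 74.6 CPM in A2AS control and 69.5 CPM in WT control.

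The deposited tables name genes only by ID, and none of the 41476 rows of the RefSeq gene table supplied for tomato holds an ID of this form. The 67 genes are therefore described by their IDs and values, without names or roles, and a few IDs stand for each group.

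**Figure D1:**
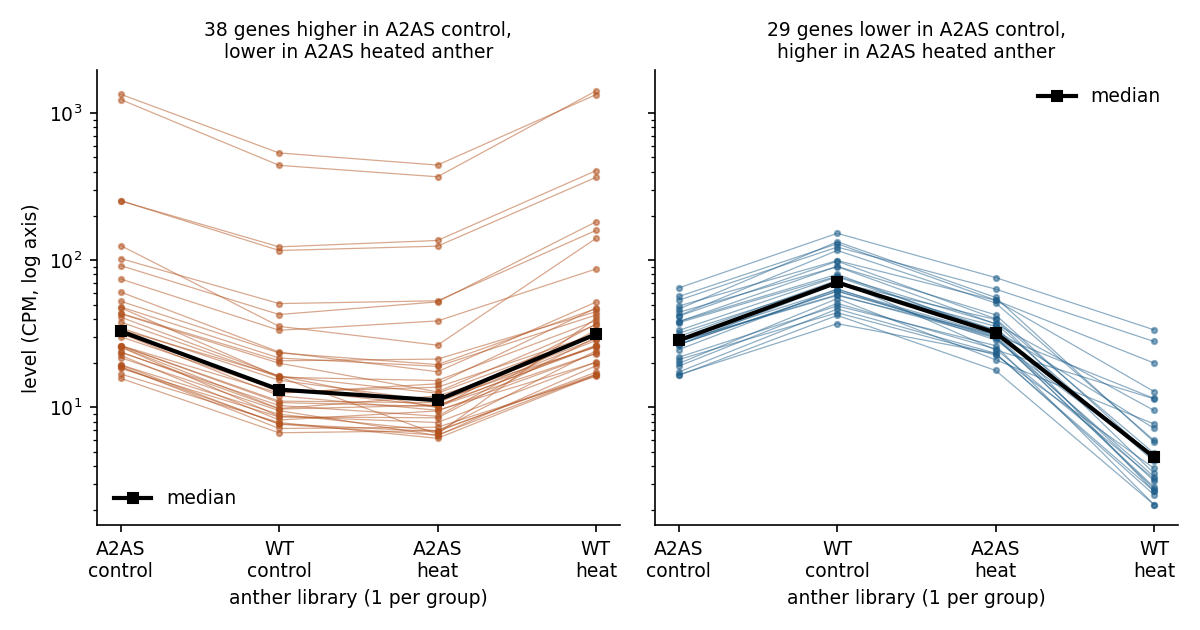
Level of each gene (CPM, log axis) in the 4 anther libraries, with control-high genes on the left, control-low genes on the right and the group median in black. The control-high lines are high at both ends and low in the middle, while the control-low lines peak in WT control and drop to a median of 4.59 CPM in heated WT.

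In the control-high genes the 4 anther libraries fell into 2 high and 2 low ones, crosswise over genotype and treatment. Their median level was 32.9 CPM in A2AS control against 13.2 CPM in WT control, and 11.2 CPM in the heated library labelled A2AS against 31.4 CPM in heated WT. In 38 of 38 genes the A2AS control and heated WT values both lay above the WT control and heated A2AS values. The rule fixes the order within each pair and not that between them. The share of all 8859 genes with this order was not counted, so the count describes the chosen genes only. Of the 8859 genes 0.429% were chosen in this direction. At least 2-fold higher levels in A2AS control were found in 59 genes (0.666%) and 2-fold lower ones in heated A2AS in 128 (1.44%), so the 38 genes are 64.4% and 29.7% of these lists.

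Crossing is used for the distance between a gene's control and heated log2 ratios. It was widest in Solyc07g056300 and Solyc11g011300. Solyc07g056300 was at 126 CPM in A2AS control and 35.5 CPM in WT control anthers, 3.54-fold (3.19 to 3.93) higher in A2AS. After heat it was at 26.5 CPM in the library labelled A2AS and 141 CPM in WT, 5.31-fold (4.76 to 5.94) lower in A2AS. Its A2AS control value thus lay near the heated WT value, and its WT control value near that of the heated library labelled A2AS. Solyc11g011300 was at 47.5 CPM in A2AS control and 16.1 CPM in WT control, and at 6.58 CPM in heated A2AS and 40.3 CPM in heated WT. Its heated difference, 6.13-fold (4.92 to 7.68) lower in A2AS, was the largest of the 38 genes. Its values, like those of 14 other control-high genes, include fractions of a read, so its level is less certain, and the origin of the fractions was not tested.

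The crossing was also seen in the most abundant control-high genes. Solyc01g099530 was at 1234 CPM in A2AS control and 441 CPM in WT control, a 2.80-fold (2.71 to 2.88) higher level, and at 369 CPM in heated A2AS and 1412 CPM in heated WT, a 3.83-fold (3.72 to 3.95) lower one. Solyc02g088710 was at 1339.9 CPM in A2AS control against 535 CPM in WT control, and at 443 CPM in heated A2AS against 1332 CPM in heated WT. The values of Solyc01g099530 include fractions of a read. Together these genes held 51.6% to 58.6% of the summed level of the group in the 4 libraries. The other 36 genes summed to 1822 CPM in A2AS control and 789 CPM in WT control, and to 761 CPM in heated A2AS and 2228 CPM in heated WT, so the order of the sums was the same without the abundant pair. Over the 4 libraries 30 of the 38 genes averaged under 50 CPM, with a median of 22.4 CPM.

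The genes with the narrowest crossing lay close to the limit of 2-fold. Solyc05g050480 was at 43.6 CPM in A2AS control and 20.7 CPM in WT control, and at 21.3 CPM in heated A2AS and 44.7 CPM in heated WT. Solyc02g072430 was at 48.2 CPM in A2AS control and 21.7 CPM in WT control, and at 19.0 CPM in heated A2AS and 42.4 CPM in heated WT. Control ratios ran from 2.02-fold to 3.54-fold with a median of 2.36-fold, and heated ratios from 2.10-fold to 6.13-fold lower with a median of 2.58-fold. Counting error was not small beside this range: the counting interval lay wholly beyond 2-fold in 14 of 38 genes in the control pair and in 28 of 38 in the heated pair. The interval of 30 of 38 genes held the group's median control ratio.

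Neighbours of the limit show how the group ends. Just inside it were Solyc11g018600, with log2 ratios of 1.00 in control and −1.57 in heated anthers, and Solyc02g067830, with 1.33 and −1.003. Just outside were Solyc02g085450, with 1.07 and −0.99, and Solyc01g109750, with 0.99 and −1.40. Within 0.1 log2 of the limit 13 genes lay inside and 16 outside, so the group has no clear edge.

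**Figure D2:**
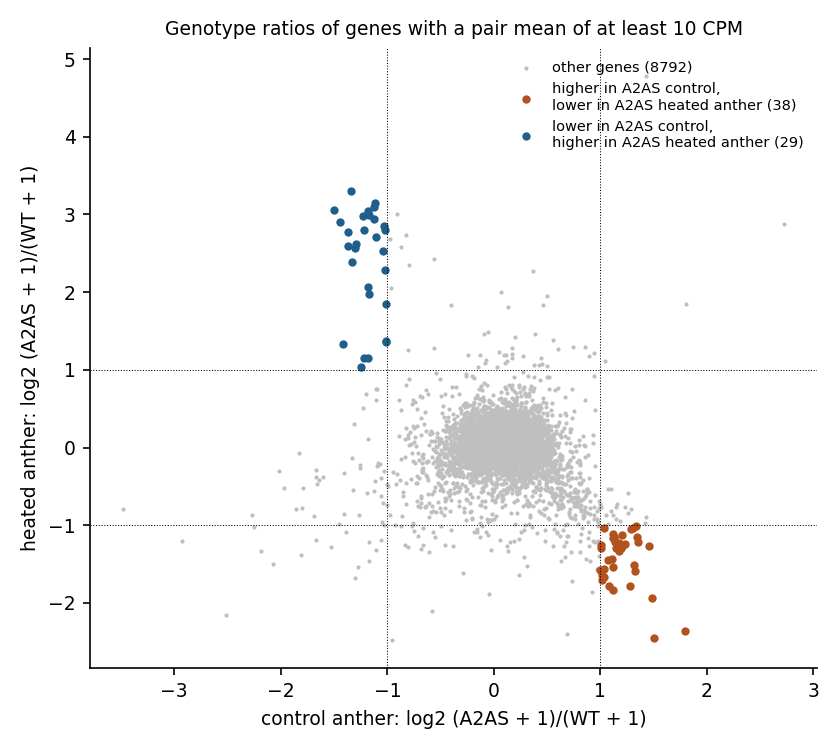
Log2 ratio of A2AS to WT in control anthers (x axis) and heated anthers (y axis) for the 8859 genes that met the minimum in both pairs, with dotted lines at 2-fold. Control-high genes (38, orange) continue a tail of the grey cloud, and control-low genes (29, blue) reach log2 ratios of 3.30 in heated anthers.

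In the control-low genes WT control was the highest and heated WT the lowest library in 29 of 29 genes, with both libraries labelled A2AS in between. The rule itself sets WT control above A2AS control and heated WT below heated A2AS. The share of all 8859 genes with this order was not counted, so the count of 29 describes the chosen genes only. Their median level was 28.6 CPM in A2AS control against 70.7 CPM in WT control, and 32.2 CPM in heated A2AS against 4.59 CPM in heated WT. The group summed to 959.9 CPM in A2AS control and 2245 CPM in WT control, and to 1049 CPM in heated A2AS and 217 CPM in heated WT. In this direction 0.327% of the 8859 genes were chosen. They are 33.3% of the 87 genes (0.982%) at least 2-fold lower in A2AS control and 37.2% of the 78 genes (0.880%) at least 2-fold higher in heated A2AS. The control ratios were narrow, from 2.03-fold to 2.86-fold lower in A2AS with a median of 2.31-fold. The heated ratios were wide, from 2.15-fold to 13.2-fold higher in A2AS with a median of 8.16-fold.

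Solyc03g034280 and Solyc02g067450 had the widest crossing among the control-low genes. Solyc03g034280 was at 26.8 CPM in A2AS control and 69.4 CPM in WT control, 2.59-fold (2.30 to 2.93) lower in A2AS. After heat it was at 35.5 CPM in the library labelled A2AS and 2.70 CPM in WT, 13.2-fold (9.43 to 18.9) higher in A2AS. The heated WT library alone was far below the other 3 for this gene. Solyc02g067450 was at 46.7 CPM in A2AS control and 134 CPM in WT control, and at 55.8 CPM in heated A2AS and 5.83 CPM in heated WT.

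The narrowest crossing in this group was that of Solyc11g008860 and Solyc07g062560. Solyc11g008860 was at 30.3 CPM in A2AS control and 73.3 CPM in WT control, and at 24.6 CPM in heated A2AS and 11.4 CPM in heated WT. Solyc07g062560 was at 53.6 CPM in A2AS control and 123 CPM in WT control, and at 63.6 CPM in heated A2AS and 28.1 CPM in heated WT. With Solyc06g054270, at 64.9 CPM in A2AS control against 152 CPM in WT control and 76.2 CPM in heated A2AS against 33.7 CPM in heated WT, it was also among the most abundant. The control-low genes had no member at an average of 100 CPM, while the control-high genes had 4. Counting intervals lay wholly beyond 2-fold in 18 of 29 genes in the control pair and in 28 of 29 in the heated pair.

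At the limit, Solyc09g010090 (log2 −1.01 in control and 1.37 in heated anthers) and Solyc06g084180 (−1.01 and 1.85) lay just inside. Solyc03g058890 (−0.98 and 2.68) and Solyc05g013980 (−0.96 and 2.05) lay just outside, kept out by the control ratio in each case. Within 0.1 log2 of the limit 8 genes lay inside and 3 outside.

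Read as heat responses, the same 4 libraries gave different pictures for the groups. These ratios use the values that chose the genes, and the rule itself sets the heat ratios of A2AS and WT apart. They are given without a test, and the shares of all genes beside them describe the choice. Of the 38 control-high genes, 32 were 2-fold or more below control after heat in the libraries labelled A2AS, as were 2.08% of the 8859 genes. In heated WT anthers 29 of them were 2-fold or more above control, as were 1.98% of the 8859. Both held for 23 genes, against 0.373% of all genes, which is 69.7% of the 33 genes with that pattern. The median log2 ratio of heat to control was −1.32 in A2AS and 1.22 in WT anthers. The reverse pattern, 2-fold higher with heat in A2AS and 2-fold lower in WT, was found in 0 of the 8859 genes (0%).

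Among control-high genes, the largest heat ratios in WT were those of Solyc06g050900 and Solyc07g056300. Solyc06g050900 was at 52.1 CPM in heated and 91.8 CPM in control A2AS anthers, 1.76-fold (1.61 to 1.93) lower. It was at 182 CPM in heated and 42.8 CPM in control WT anthers, 4.26-fold (3.88 to 4.69) higher. Solyc07g056300 was 4.75-fold (4.25 to 5.31) lower after heat in A2AS, against a 3.96-fold (3.57 to 4.40) higher level in WT. The most negative heat ratio in A2AS belonged to Solyc11g011300, which was 7.22-fold (5.83 to 9.03) lower after heat. The highest library of the 38 genes was A2AS control in 21 and heated WT in 17. The A2AS control value lay within 2-fold of the heated WT value in 38 of 38 genes, with a median log2 ratio of 0.02, as it did in 97.0% of the 8859 genes. The heated value of the library labelled A2AS lay within 2-fold of the WT control value in 37 of 38, with a median log2 ratio of −0.17, against 96.2% of the 8859, and the exception was Solyc11g011300. Both shares were near those of all genes.

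In the control-low genes the libraries labelled A2AS were close, and heated and control WT anthers were far apart. In the libraries labelled A2AS none of the 29 reached 2-fold after heat in either direction. Of all genes 3.62% did, so the count of the 29 is near the share of all genes. The ratios of the 29 ran from 1.24-fold lower to 1.39-fold higher. The counting interval of the A2AS heat ratio included 1 in 14 of 29 genes. All 29 were 2-fold or more below control in heated WT anthers, as were 1.87% of the 8859 genes, by 4.38-fold to 25.7-fold with a median of 16.9-fold. Staying under 2-fold in A2AS and being 2-fold lower in WT was found in 103 genes (1.16%), of which the 29 make up 28.2%. Among the 8859 genes, 31 were 10-fold or more lower after heat in WT anthers, and 22 of these (71.0%) were control-low genes. The rule favours such genes, as it sets WT control above and heated WT below the A2AS value.

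Solyc07g062560, Solyc06g054270, Solyc09g010090 and Solyc01g099820 were 4.38-fold to 5.003-fold lower after heat in WT, and 7 genes in all were under 10-fold. The other 22 were 10.1-fold to 25.7-fold lower, ending with Solyc02g067450 at 22.9-fold (18.3 to 29.0) and Solyc03g034280 at 25.7-fold (18.5 to 36.8). In the A2AS libraries the highest heat ratio was that of Solyc06g008650, at 23.2 CPM after heat and 16.7 CPM in control (1.39-fold, 1.18 to 1.65). Solyc06g008680 was next, at 23.3 CPM after heat and 17.4 CPM in control. On the other side Solyc11g008860 was 1.24-fold (1.07 to 1.42) lower and Solyc06g084180 1.20-fold (1.07 to 1.35) lower after heat.

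**Figure D3:**
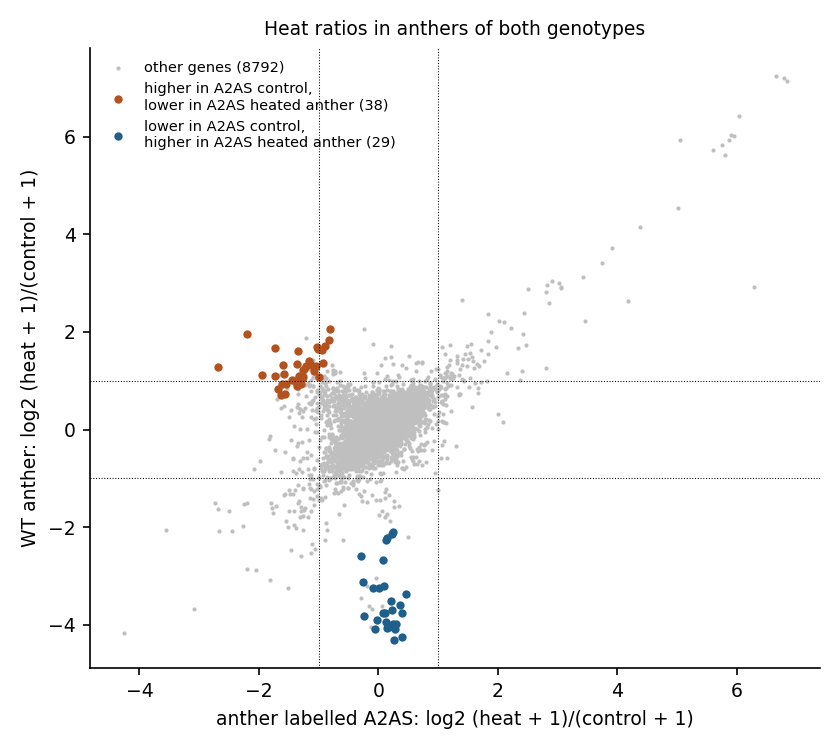
Log2 ratio of heat to control in anthers labelled A2AS (x axis) and in WT anthers (y axis), with dotted lines at 2-fold. Control-high genes (orange) lie to the upper left and control-low genes (blue) straight below the centre, with WT log2 ratios from −4.30 to −2.09 and A2AS ratios from −0.29 to 0.45.

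Markers of anther cell types, named from published tomato nomenclature and not from the deposited tables, differed between the libraries too. LAT52 (Solyc10g007270), a gene expressed in pollen, was at 136 CPM in A2AS control and 295 CPM in WT control, and at 163 CPM in heated A2AS and 106 CPM in heated WT. WT control was the highest and heated WT the lowest library for LAT52, as for the 29 control-low genes. It was 2.17-fold (2.05 to 2.29) lower in A2AS control and 1.53-fold (1.43 to 1.63) higher in the heated library labelled A2AS, short of the limit for inclusion. The tapetum regulators MS10, MS32, TDF1 and AMS, which encode transcription factors needed for tapetum development, summed to 247 CPM in A2AS control and 329 CPM in WT control. After heat they summed to 297 CPM in the library labelled A2AS and 445 CPM in WT. All 4 were lower in A2AS in both pairs, with log2 ratios from −0.62 to −0.12 in control and from −0.70 to −0.45 in heated anthers, and all 4 were highest in heated WT. The counting interval of MS32 in the control pair (1.09-fold lower, 0.909 to 1.30) includes 1. None of these pollen and tapetum markers was at 0 in an anther library, and the 17 marker and check genes include none of the 67. The 3 Rubisco small subunit genes, markers of green tissue, summed to 2776 CPM in A2AS control and 2680 CPM in WT control, and to 2172 CPM in heated A2AS and 1967 CPM in heated WT, against 13678 to 38082 CPM in leaf. The labels do not say whether the stages collected differed between the libraries, so stage and group cannot be told apart. The part of pollen and tapetum in the opposite differences was not tested.

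**Figure D4:**
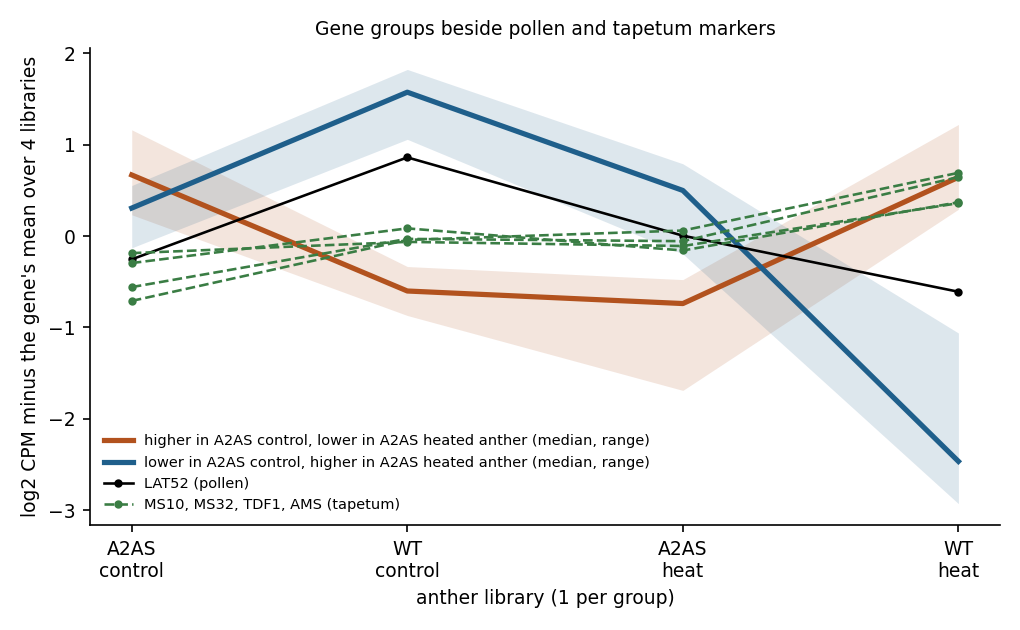
Log2 CPM of each gene minus its own mean over the 4 anther libraries: group medians (thick lines) with the full range of the members (shading), LAT52 (black) and 4 tapetum regulators (green, dashed). LAT52 is highest in WT control and lowest in heated WT, an order shared with the control-low genes. Its drop with heat in WT, 2.77-fold, is smaller than theirs, 4.38-fold to 25.7-fold. The tapetum regulators are highest in heated WT.

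Most of the 67 genes were low in leaf, which the rule did not use. In WT control plants 36 of 38 control-high and 29 of 29 control-low genes were at least 2-fold higher in anther than in leaf, where 23.9% of the 8859 genes were. The median log2 ratio of anther to leaf was 3.32 for control-high and 5.66 for control-low genes, against 0.30 for all 8859. The rule used the WT control anther library and picks low values there for control-high and high values for control-low genes. The order of these medians is therefore not a separate result. In heated WT the median levels were 31.4 CPM for control-high and 4.59 CPM for control-low genes in anther, and 0.649 CPM for both in leaf. Since the rule asks for a minimum in anther and none in leaf, the 8859 genes that pass the same minimum are the comparison. A mean of 2 CPM or more over the 4 leaf libraries was reached by 11 control-high and 3 control-low genes, and by 94.7% of the 8859. The leaf level stayed under 1 CPM in every leaf library for 22 of 38 control-high and 20 of 29 control-low genes, against 2.83% of the 8859.

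The exceptions with a leaf level were few. Solyc06g050900, a control-high gene, had the highest leaf level, at 36.5 CPM in A2AS control and 49.1 CPM in WT control leaf, and at 18.4 CPM in A2AS and 18.8 CPM in WT after heat. It was the single gene of the 67 with a lower level in WT control anther (42.8 CPM) than in WT control leaf. Solyc02g067830 had the next highest ratio of leaf to anther among control-high genes, at 4.28 CPM in A2AS control and 5.59 CPM in WT control leaf. Among control-low genes that ratio was highest in Solyc06g076090, at 2.79 CPM in A2AS and 3.29 CPM in WT control leaf, and in Solyc01g099820, at 2.32 CPM in A2AS and 3.12 CPM in WT control leaf.

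**Figure D5:**
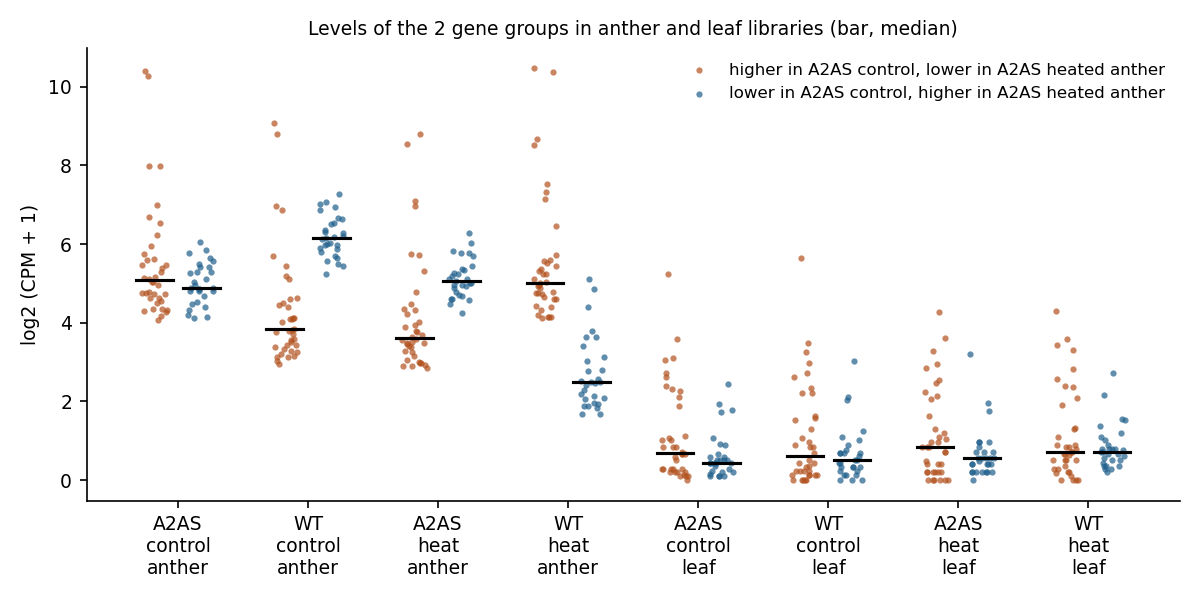
Levels as log2 (CPM + 1) of the control-high (orange) and control-low (blue) genes in the 4 anther and 4 leaf libraries, 1 point per gene, with the median as a bar. In leaf the group medians lie between 0.362 and 0.801 CPM, against 4.59 to 70.7 CPM in anther.

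A 2-fold difference between A2AS and WT leaf was reached by 0 of the 67 genes in control plants (3.53% of the 8859) and by 0 after heat (7.89%). At such levels most differences were not detectable at this depth, since few reads stand behind each value and the added 1 CPM shrinks ratios of low genes. The genes that can be compared are the 14 with a leaf mean of at least 2 CPM. For them the log2 ratio of A2AS to WT ran from −0.58 to 0.65 in control leaf and from −0.49 to 0.47 in heated leaf. Of the 8390 genes with that leaf mean, 3.62% differed 2-fold or more in control leaf and 8.15% in heated leaf. The leaf genotype difference was tested with limma over the 4 leaf libraries with treatment as a block, where the residual is how the genotype difference varies between treatments and not a spread between plants. By limma 1 of the 14 had an unadjusted p under 0.05, against 43% of 14017 genes. With Benjamini-Hochberg adjustment 0 of the 14 were called, while 31.5% of the 14017 were. Solyc09g064900 came nearest, at 5.58 CPM in A2AS and 3.64 CPM in WT control leaf and at 6.25 CPM in A2AS and 4.26 CPM in WT after heat. Its difference was 0.48 ± 0.22 log2 (SE; limma adjusted p = 0.0965), higher in A2AS in 2 of 2 leaf pairs. Under median-ratio scaling it was called, at 0.72 ± 0.20 log2 (limma adjusted p = 0.0496). With that scaling 2066 leaf genes were called in all (708 lower in A2AS), against 4413 without it (3345 lower in A2AS). Solyc07g052910, the next highest, differed by 0.44 ± 0.25 log2 (limma adjusted p = 0.180).

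For heat in leaf the same limma fit called 1 of the 14 genes, and 13.5% of the 14017. That gene, Solyc06g050900, fell by 1.14 log2 units with an SE of 0.17 (adjusted p = 3.17e-05). Heated leaf was lower in 2 of 2 genotypes, 1.98-fold (1.61 to 2.45) in A2AS and 2.61-fold (2.25 to 3.03) in WT. In anthers its heated level was 1.76-fold lower in A2AS and 4.26-fold higher in WT. The difference between tissues was not tested, as its anther values chose it. By size, 0 of the 67 genes reached 2-fold with heat in A2AS leaf (2.58% of the 8859) and 1 in WT leaf (3.82%), again Solyc06g050900. Among genes with a leaf mean of 2 CPM or more the shares were 2.60% in A2AS and 3.95% in WT.

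The genes were spread over the tomato chromosomes that their IDs name, with the values that follow. Of the 29 control-low genes 9 carry an ID of chromosome 6 and 8 one of chromosome 1, which is 31.0% and 27.6% of the group against 10.2% and 16.0% of the 8859 genes. None carries an ID of chromosome 4, 5, 8 or 10, which hold 8.99%, 7.05%, 7.77% and 4.27% of the 8859. The 38 control-high genes had 5 IDs (13.2%) each on chromosomes 1, 2 and 7, which hold 16.0%, 11.6% and 8.16% of the 8859. They had 4 IDs (10.5%) each on chromosomes 5 and 11, which hold 7.05% and 3.03% of the 8859. In 4 places a pair of members had at most 3 other listed IDs between them. Solyc01g110230 and Solyc01g110240 are consecutive IDs, at 74.5 and 33.9 CPM in A2AS control, 33.4 and 12.7 CPM in WT control, 38.7 and 13.7 CPM in heated A2AS and 87.2 and 31.6 CPM in heated WT. Solyc05g050660 and Solyc05g050670 are also consecutive, both control-high.

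Among control-low genes, Solyc01g066370 and Solyc01g066420 had nearly the same value in every anther library. They were at 26.8 and 26.7 CPM in A2AS control, 61.5 and 61.8 CPM in WT control, 29.9 and 30.3 CPM in heated A2AS and 2.88 and 2.81 CPM in heated WT. Both include fractions of a read and are among 9 of the 29 control-low genes that do. The treatment of reads matching more than 1 gene was not stated in the labels, so the level of each of these IDs is uncertain and they may not be separate observations. Solyc06g008650 and Solyc06g008680 form the other control-low pair.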

How the data were processed

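The authors deposited CPM values per gene and library, with tags scaled to 1000000 and no length term, under the name TPM. The submitters' processing notes name FastQC. For alignment, counting, strand use, genome build and annotation, the tools and settings were not given in the sources used here. In each library 77.6% to 83.9% of the values above 0 were whole multiples of a common step, within 0.001 of a read, too few to recover counts, so no count model was run. The step gave the library size, and values were rounded to reads for exact (Clopper-Pearson) intervals, which cover counting error only.

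The 67 genes, the lists and the tests were chosen with earlier results of these data known. Groups came from the labels, with 1 library each. Ratios are log2 of (value + 1) over (value + 1), and folds are ratios of the values themselves. Leaf was tested with limma 3.58.1 in R 4.3.3 on log2(CPM + 1), with genotype and treatment as terms and a variance trend. Genes entered at a mean of 2 CPM or more over the 4 leaf libraries, and Benjamini-Hochberg adjustment at 0.05 covered all of them. Named genes had, in each direction, the widest or narrowest crossing, the highest anther level, the largest heat ratios, the outermost leaf genotype ratios, the highest leaf to anther ratios, neighbouring IDs, or values next to the limit. Solyc09g010090 and Solyc01g099820 were also named for their heat ratio after it was seen. The choice of genes and the limma step were run on simulated data as a check of the code. The noise, levels and planted differences there were not matched to these genes, so that check says nothing on the certainty of any gene. Alternatives changed the pseudocount, scaling, minimum, fold limit and variance prior.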

Additional observations from a re-analysis of the deposited data

Results flagged for a closer look

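The 38 control-high and 29 control-low genes themselves show an A2AS difference that turns with treatment in anthers, and 23 of the control-high genes show a heat difference that turns with genotype. The heat difference of these 23 genes is the same contrast read by treatment, not a further result. The difference between the pairs was not tested, as each group has 1 library and the rule chose the genes by it. LAT52 also had opposite signs, with a log2 ratio of A2AS to WT of −1.11 in control and 0.61 in heated anthers, and this was not tested. Opposite signs of any size were found in 3670 of the 8859 genes. With heat in WT anthers LAT52 was 2.77-fold lower, against a median of 16.9-fold for the control-low genes. HsfA2 turned between tissues after heat, with a log2 ratio of A2AS to WT of −2.61 in leaf and 0.79 in anthers, also untested.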

How the results depend on the processing

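The number of genes chosen depends on the limits. Control-high genes numbered 13 with a pseudocount of 5, 19 where both pairs had to average 20 CPM, 161 at 1.5-fold and 0 at 4-fold in both pairs, against 38. Control-low genes numbered 13 where both pairs had to average 20 CPM, 101 with no minimum, 49 at 1.5-fold and 0 at 4-fold, against 29. Under median-ratio scaling 28 of the 38 and 27 of the 29 were chosen again. Leaf counts at 2-fold moved by at most 2 genes. With a pseudocount of 0.5 they were 1 for genotype in control leaf, 2 for heat in A2AS leaf and 2 for heat in WT leaf, and median-ratio scaling gave 1 for genotype in control leaf and 1 for heat in A2AS leaf. The anther to leaf count was 41 of 67 where the pair mean had to reach 10 CPM, since fewer genes were counted. By limma in leaf, genotype called 1 gene (Solyc09g064900) under median-ratio scaling and 2 with no minimum, and heat called 2 with no minimum. With no minimum all 67 genes were tested, and genotype called 3908 and heat 1579 of 26164 genes in all. The genotype calls among the 67 were Solyc03g080030 and Solyc09g082180, both named after their values were seen. In leaf they were at 0 to 1.13 CPM and at 0.17 to 1.28 CPM, where 3 reads are 0.216 to 0.480 CPM. Few reads stand behind these calls. The cause of the other differences was not tested. Median-ratio scaling moved the median leaf log2 ratio of A2AS to WT over the 8859 genes to 0.02 in control and 0.00 in heated leaf. Without it these medians were −0.18 and −0.29. Of 59 alternative values, 42 stayed within 1.5 times the reported one. No paired analysis was possible because each group has 1 library and no replicate numbers to pair, and the blocks of the leaf fit are treatment and genotype, not replicates. Without any of the 4 anther libraries the genes cannot be chosen.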
